A study of Homo sapiens with 24 samples.

Results

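The libraries taken at 6 h and 32 h were 2 of 24 in a time course of K562 cells, and both departed from the libraries on either side of them, though by less than those at 16 h and 18 h. Each was compared with its own neighbours, 4 h and 8 h for the former and 30 h and 34 h for the latter. The deviation of a gene was its log2(FPKM + 1) minus the mean of that value at the 2 neighbours. Genes were taken as moving the same way when they lay at least 1.5-fold (0.58 on the log2 scale) above, or below, at both time points. This rule gave 301 of the 12253 genes with a series mean of at least 1 FPKM, or 2.46%. Of these, 153 (1.25% of all genes tested) were above their neighbours and 148 (1.21%) were below. Another 20 genes (0.163%) passed in opposite directions. The genes were chosen by their FPKM in these 6 libraries, so their levels there are given as a description, with no test.

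K562 is an established line from chronic myeloid leukaemia that grows in suspension and keeps erythroid features. All cells were grown in RPMI with 10% BCS (bovine calf serum) and P/S, and a synchronous population was collected by centrifugal elutriation, which separates cells by size. The labels name no drug or gene deletion, and the groups were told apart by time. From 0 h to 46 h, cells were frozen every 2 h and total RNA was sequenced, with 1 library per time point and no replicates. FPKM scales the fragments of a gene by its transcript length and by the size of the library, so levels of different genes can be compared per length. The read depth of the libraries is unknown, and no interval for counting error can be given.

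Several kinds of gene matter for what follows. Globins are the protein chains of haemoglobin, and K562 cells make the embryonic and fetal forms. Small nucleolar RNAs are short RNAs cut from introns of host genes, and those with C and D boxes guide ribose methylation of ribosomal RNA. Parts of the mitochondrial genome have been copied into chromosomes during evolution, and many abundant ribosomal protein genes have left processed pseudogenes. Readthrough genes are annotated transcripts that join exons of neighbouring genes. In all of these, sequence is shared with another annotated gene or lies inside one, and how fragments were divided between such genes in the deposited table was not tested. The sources used here do not say whether strand was used, so antisense genes and the genes they overlap cannot be told apart.

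The marker genes of the line were present at 6 h and 32 h. GATA1, the erythroid transcription factor, was at 137 FPKM at 6 h and 138 FPKM at 32 h, and TAL1, its partner, was at 59.4 and 42.1 FPKM. Both values lay within the range of the other libraries, which was 49.2 to 149 FPKM for GATA1 and 40.3 to 63.5 FPKM for TAL1. Of 9 fibroblast, 10 lymphoid and 10 myeloid markers, 2, 2 and 1 were in the table. The summed levels of these fibroblast markers were 6.51 FPKM at 6 h and 12.1 FPKM at 32 h, within a series range of 5.52 to 14.7 FPKM. The lymphoid sums were 5.87 and 8.27 FPKM (range 4.81 to 14.1 FPKM), and the single myeloid marker, LYZ, was at 11.7 and 28.0 FPKM (range 10.7 to 28.2 FPKM).

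At 6 h, 295 genes (2.41%) lay at least 1.5-fold above their neighbours and 233 (1.9%) lay below, 528 in all (4.31%). At 32 h the counts were 417 (3.4%) above and 412 (3.36%) below, 829 in all (6.77%). A further 16 time points could be read in this way without using 16 h or 18 h, and there 117 to 417 genes passed in either direction, with a median of 174. Both 6 h and 32 h exceeded each of these totals. The highest of the 16, at 22 h, had 417. At 2-fold, 70 genes (0.571%) were above and 106 (0.865%) below at 6 h, 1.44% in all. At 32 h, 55 (0.449%) were above and 124 (1.01%) below, 1.46% in all. The median deviation of all genes was 0.05 at 6 h and 0.03 at 32 h. The 16 time points had medians between −0.03 and 0.04, and these values depend on how the libraries were scaled.

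Across all genes the deviations at 6 h and 32 h had Pearson's r = 0.69, with 12253 genes that are not independent replicates and no library in common. Their signs matched for 73.3% of genes. Among the 98 pairs of other time points that share no library, r ranged from −0.35 to 0.45 and the number of genes moving the same way was 16 to 97, against 301 here. The number in opposite directions was 14 to 77 in those pairs. With the pairs that hold 6 h or 32 h added, 122 in all, these ranges were −0.56 to 0.45, 16 to 111 and 14 to 147. Even the 98 pairs are not free of 6 h and 32 h, because some time points have those libraries as a neighbour. Their highest values, r = 0.45 and 97 genes, came from 8 h with 30 h, which both have such a neighbour. Among pairs without such a neighbour, the highest were r = 0.40 and 71 genes, for 22 h with 28 h. At 2-fold, 27 genes (0.22%) were above at both and 62 (0.506%) below at both, together 0.726%, while 2 (0.0163%) passed in opposite directions. Of the genes above, 132 of 153 had a higher deviation at both time points than at any of the 16 other time points. Of those below, 84 of 148 had a lower deviation at both. The rule chose these genes for large deviations at 6 h and 32 h, so these counts are a description and no test. Where the 6 h or 32 h library is a neighbour, the deviation is also pushed the opposite way by construction. The plot of the deviations at 6 h against those at 32 h shows these groups.

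**Figure D1:**
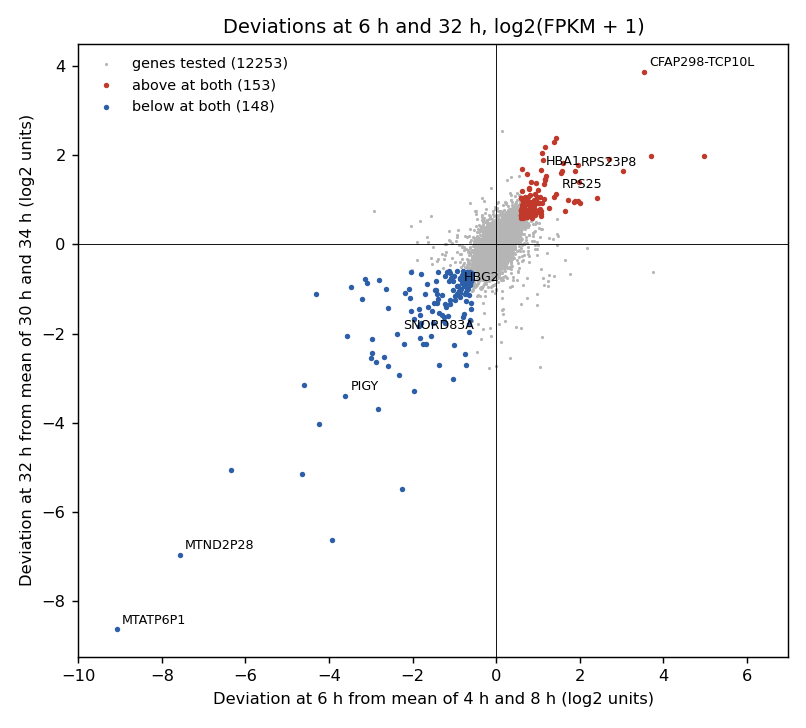
Deviation of each gene at 32 h (vertical axis) against that at 6 h (horizontal axis), both in log2 units of FPKM + 1 from the mean of the 2 neighbouring libraries. Grey points are the 12253 genes tested, red points the 153 above at both and blue points the 148 below at both. MTATP6P1 and MTND2P28 are at the far lower left. Signs match for 73.3% of genes, and 20 genes past 1.5-fold at both lie in the upper left and lower right quadrants.

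The libraries at 16 h and 18 h did not enter the rule and offer a separate reading of the same genes. There, the mean level at 14 h and 20 h was taken away from that at 16 h and 18 h. Of the 153 genes above at 6 h and 32 h, 145 (94.8%) had a positive deviation there, and of the 148 below, 140 (94.6%) had a negative one. Among all genes, 58.1% were positive and 41.9% negative. The median deviation was 1.29 for the genes above and −1.46 for the genes below, against 0.14 for all genes. At 1.5-fold, 127 of the 153 (83%) were above at 16 h and 18 h, where 23.9% of all genes were, and 127 of the 148 (85.8%) were below, where 16.8% were. Across all genes, r with the deviation at 16 h and 18 h was 0.49 for 6 h and 0.60 for 32 h, and it was −0.49 to 0.25 for the 16 other time points. The value of −0.49 was at 30 h, where the 32 h library is a neighbour. The shift at 16 h and 18 h was larger than at 6 h and 32 h, where the medians were 0.77 and 0.82 for the genes above and −1.09 and −1.09 for those below.

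Not every gene followed this. MT-ND4, a mitochondrially encoded subunit of respiratory complex I, was at 24.6, 8.07 and 22.9 FPKM at 4, 6 and 8 h, and at 17.4, 9.01 and 16.0 FPKM at 30, 32 and 34 h. It was therefore lowest at 6 h and 32 h, but at 16 h and 18 h it was at 28.9 and 45.1 FPKM, the latter above the 13.7 to 32.9 FPKM of the 16 time points outside the rule. MT-ATP6, a subunit of the mitochondrial ATP synthase, had deviations of −0.67 at 6 h and −0.54 at 32 h, the latter under the threshold, and one of 1.05 at 16 h and 18 h. In all, 5 mitochondrially encoded genes were tested, all 5 with a positive deviation at 16 h and 18 h, 1 of them (20%) below at 6 h and 32 h. MTCP1, a proto-oncogene first found in mature T-cell proliferation, was at 15.3, 4.54 and 12.2 FPKM around 6 h and 11.7, 5.08 and 12.6 FPKM around 32 h, and at 11.5 and 15.6 FPKM at 16 h and 18 h, where its deviation was 0.09.

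At 8 other time points neither the library nor its neighbours entered the rule or were 16 h or 18 h. The median deviation of the genes above was −0.11 to 0.24 there and that of the genes below was −0.40 to 0.17, against −0.03 to 0.04 for all genes. The largest values were at 26 h, where 133 of 153 genes above (86.9%) had a positive deviation, against 52.2% of all genes, and 124 of 148 genes below (83.8%) had a negative one, against 47.8%. At 24 h, 33.3% of the genes above and 70.3% of the genes below had a positive deviation, against 40.1% of all genes. The profile of both groups over the whole series shows 4 departures, at 6, 16, 18 and 32 h, with smaller partings in the same direction at 26 h, 34 h and 46 h. At 34 h, a neighbour on which the 32 h deviation rests, the medians were 0.14 for the genes above and −0.23 for the genes below.

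**Figure D2:**
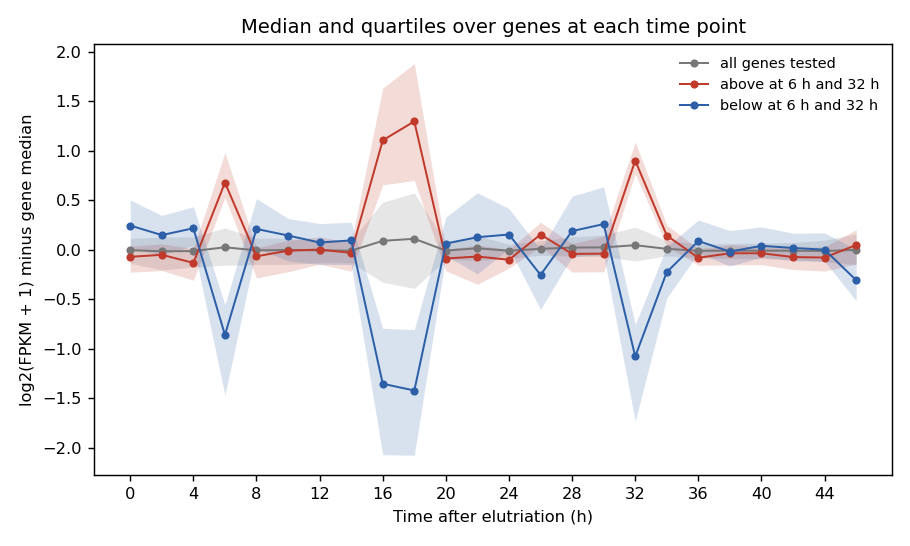
Level of genes relative to their own series median, in log2 units of FPKM + 1 (vertical axis), at each time point in h (horizontal axis). Points and lines are medians over the 153 genes above at 6 h and 32 h (red), the 148 below (blue) and all 12253 genes (grey), and bands are the quartiles over genes; the red and blue lines part at 6, 16, 18 and 32 h.

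The 2 genes with the largest falls, MTATP6P1 and MTND2P28, belong to a run of neighbouring genes at the start of chromosome 1. At 6 h, 35 genes were listed at 0, and at 32 h 58 were. Of these, 25 were at 0 at both, whereas at most 7 genes were at 0 at both of any 2 of the other 20 time points. All 25 were also at 0 at 16 h or 18 h, and 19 of them at both of those. For 10 genes the value was 0 at 6, 16, 18 and 32 h and at no other time point, and no other set of 4 time points held more than 1 gene at 0 in that set alone. The 10 were next to each other in the table's order along chromosome 1, at places 5 to 14 of its 1200 genes there. Within the same stretch the annotation has 20 genes in all. In order, they were MTND1P23, MTND2P28, MTCO1P12, MTCO2P12, MTATP8P1, MTATP6P1 and MTCO3P12, which are unprocessed pseudogenes copied from mitochondrial DNA, and the long noncoding RNA genes LINC01409, LINC01128 and LINC00115.

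MTATP6P1 was the most abundant of them, at 559, 0 and 524 FPKM at 4, 6 and 8 h and at 397, 0 and 387 FPKM at 30, 32 and 34 h. It was listed at 0 at 16 h and 18 h and at 332 to 686 FPKM at all 16 remaining time points. MTND2P28 was at 198, 0 and 182 FPKM around 6 h and at 148, 0 and 103 FPKM around 32 h. LINC01128 was at 18.5, 0 and 17.4 FPKM and at 17.1, 0 and 13.6 FPKM. The other 7 genes of the stretch were low, at 0.620 to 8.05 FPKM wherever they were above 0. The gene that followed in the table, NOC2L (named after its values were seen), a nucleolar protein that associates with histones, was not at 0 at any time point. It was at 143, 187 and 151 FPKM around 6 h and at 153, 171 and 160 FPKM (159.8) around 32 h, above both neighbours each time. No fold is given for a gene listed at 0, and such a listing can reflect a failed estimate. The heat map of the stretch shows the same 4 empty columns for all 10 genes.

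**Figure D3:**
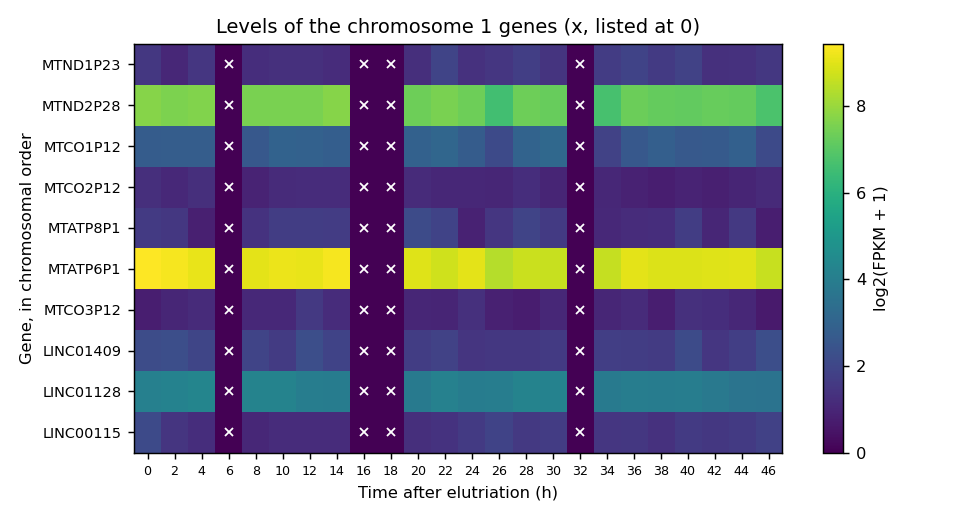
Level, as log2(FPKM + 1) by colour, of the 10 neighbouring chromosome 1 genes (rows, in chromosomal order) at the 24 time points in h (columns). White crosses mark values listed at 0, which fill the columns at 6, 16, 18 and 32 h and no others.

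MTATP6P1 and its mitochondrial source MT-ATP6 differ at 10 of 681 bases (98.5% identity) in GENCODE 29. A window of 90 bases, positions 103 to 192 of each gene from its first base, is shown because it holds 4 of the differences, in capitals. The level of MT-ATP6 was 314, 188 and 288 FPKM around 6 h and 335, 188 and 224 FPKM around 32 h, below both neighbours each time. At 16 h and 18 h, where the copy was also listed at 0, it was above. Levels of 553 and 829 FPKM at 16 h and 18 h exceeded the 203 to 377 FPKM of the 16 remaining time points.
MTATP6P1: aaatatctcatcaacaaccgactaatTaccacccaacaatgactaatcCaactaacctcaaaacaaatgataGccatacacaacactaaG
MT-ATP6: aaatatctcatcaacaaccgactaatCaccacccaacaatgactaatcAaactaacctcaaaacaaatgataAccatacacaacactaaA
In total 8 nuclear copies of mitochondrial genes were tested, and 5 (62.5%) were below at both time points, against 1.21% of all genes. These 5 were MTND1P23, MTND2P28, MTCO1P12, MTATP8P1 and MTATP6P1, all of the chromosome 1 run described above, so the share reflects a single run of neighbours. No copy elsewhere was below at both, and MTND6P4 passed in opposite directions (0.60 and −1.34).

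The globins divided. HBA1, an alpha chain of haemoglobin, was at 627, 1398 and 708 FPKM at 4, 6 and 8 h and at 368, 1663 and 743 FPKM at 30, 32 and 34 h. Its levels at 6 h and 32 h were the highest of the series, above 1237 and 1205 FPKM at 16 h and 18 h and 326 to 777 FPKM elsewhere. The deviation was 1.07 at 6 h and 1.67 at 32 h, and the second rests partly on the low 30 h library. HBA2, which encodes the same protein and has 97.8% identity to HBA1 over 640 aligned transcript bases, was at 325, 286 and 369 FPKM and at 211, 213 and 296 FPKM. Its deviations, −0.27 and −0.23, did not pass the threshold. HBA1 therefore made up 65.9%, 83.0% and 65.7% of the sum of both genes at 4, 6 and 8 h and 63.6%, 88.6% and 71.5% at 30, 32 and 34 h. At 16 h and 18 h this share reached 93.6% and 94.1%. The 16 remaining time points lay between 62.6% and 72.0%. The sum of both genes in FPKM deviated by 0.73 at 6 h and by 1.27 at 32 h. How fragments were divided between HBA1 and HBA2 was not tested.

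HBG2, a gamma chain of fetal haemoglobin, went the other way. It was at 2830.4, 1554 and 2971 FPKM around 6 h and at 2158, 1064 and 1916 FPKM around 32 h. HBG1, the other gamma chain, was at 1100.5, 589.6 and 1121 FPKM and at 878, 363 and 685 FPKM. Both were lower at 6 h and 32 h than at every time point other than 16 h and 18 h, where HBG2 was at 684 and 533 FPKM and HBG1 at 247 and 214 FPKM. The deviations were −0.90 and −0.93 for HBG2 and −0.91 and −1.09 for HBG1. In contrast to the alpha pair, the gamma pair kept its proportions. HBG2 made up 72.5% of the sum at 6 h and 74.6% at 32 h, where the 16 remaining time points lay between 70.7% and 74.5%. In bulk RNA, fewer cells of a type and less RNA per cell cannot be told apart.

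Among all 9 globins, 1 was above and 2 were below at both time points, against 1.25% and 1.21% of all genes. A negative deviation at both was seen in 6. HBE1, the embryonic epsilon chain, was at 1899, 1637 and 1991 FPKM and at 1961, 1450.1 and 1902 FPKM, with deviations of −0.25 and −0.41 that did not reach 1.5-fold. HBZ, the embryonic zeta chain, deviated by −0.36 and 0.01, and HBB, the adult beta chain, by −0.62 and −0.43 at levels of 1.38 and 1.62 FPKM. HBD deviated by −0.10 and −0.05 and HBQ1 by 0.08 and 0.30. At 16 h and 18 h, 8 of the 9 had negative deviations. Of 22 other erythroid genes, 0 were below. At the shares over all genes, few would be reached in this list or among the heme synthesis genes. AHSP, which binds free alpha globin, deviated by −0.53 and −0.29, and NFE2, an erythroid transcription factor, by 0.29 and 0.41. None of 9 heme synthesis genes passed, with deviations of 0.09 and 0.28 for ALAS2, which starts the pathway in red cells.

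**Figure D4:**
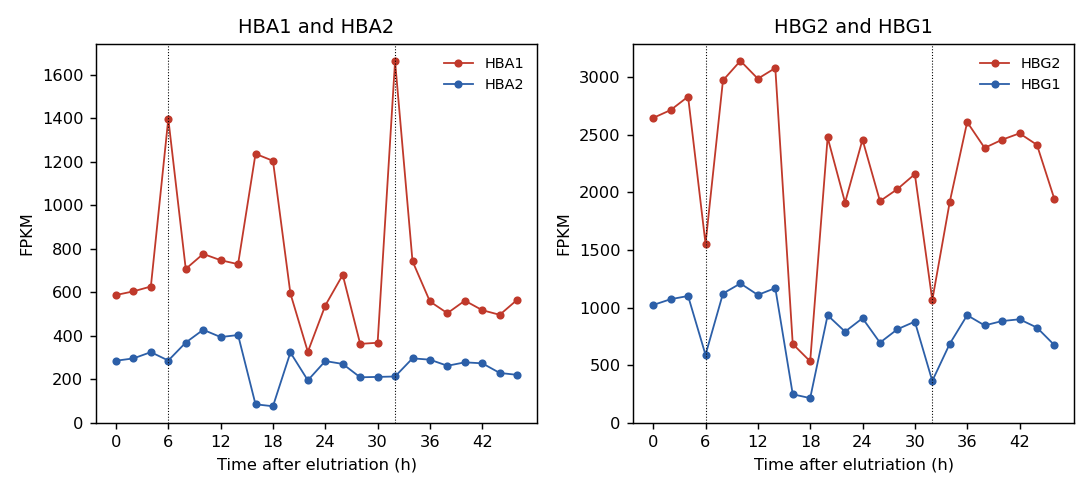
FPKM (vertical axes) of the alpha pair HBA1 and HBA2 (left) and the gamma pair HBG2 and HBG1 (right) at each time point in h (horizontal axes), with dotted lines at 6 h and 32 h. HBA1 peaks at both lines, where HBA2 is at 286 and 213 FPKM, and HBG2 and HBG1 dip together.

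Of 84 cytosolic ribosomal protein genes, 11 (13.1%) were below at 6 h and 32 h, where 1.21% of all genes were, and 2 (2.38%) were above. The median deviation of the list was −0.21 at 6 h and −0.28 at 32 h, against 0.05 and 0.03 for all genes, and −0.64 at 16 h and 18 h. Deviations were negative at both time points for 54 of the 84 (64.3%), against 29.3% of all genes. RPS27A, which is made fused to ubiquitin, was at 304, 137 and 301 FPKM around 6 h and at 219.8, 131 and 178 FPKM around 32 h. Without the 30 h library the number below was 7.

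RPS25 and RPS28, both of the small subunit, were the exceptions. RPS25 was at 555, 1527 and 565 FPKM around 6 h and at 826, 1681 and 708 FPKM around 32 h, and at 2264 and 2839.8 FPKM at 16 h and 18 h. At the 16 remaining time points it was at 466 to 743 FPKM. RPS28 was at 80.1, 180.4 and 79.0 FPKM and at 59.3, 208 and 94.6 FPKM, also above both neighbours each time. The 78 mitochondrial ribosomal protein genes had 0 members in either direction, against 2.46% of all genes, with medians of −0.03 and −0.07. MRPS2, which deviated most with a positive sign among them, was at 0.57 and 0.71, and MRPS18C was at −0.60 and −0.58, short of 1.5-fold at 32 h.

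Among 44 ribosomal protein pseudogenes, 5 (11.4%) were below and 2 (4.55%) were above, against 1.21% and 1.25% of all genes. RPS23P8, a processed copy with 99.1% identity to RPS23 over 330 bases, was at 22.9, 95.3 and 27.3 FPKM around 6 h and at 27.9, 111 and 43.8 FPKM around 32 h. Its parent RPS23 moved the other way, from 701 to 457 and back to 710 FPKM around 6 h and from 975 to 339 and 417 FPKM around 32 h. The sum of both in FPKM deviated by −0.40 at 6 h and by −0.60 at 32 h. FPKM divides by transcript length, so a loss and a gain in FPKM cannot be balanced as fragments. How fragments were divided between RPS23 and RPS23P8 was not tested. RPS26P19 was at 8.57 FPKM at 6 h and 7.83 FPKM at 32 h, with deviations of 2.70 and 1.91. RPS2P5 was at 58.5, 15.2 and 55.9 FPKM and at 31.7, 8.89 and 21.4 FPKM, while its parent RPS2 deviated by −0.41 and −0.25.

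Over all types of pseudogene, 21 of 432 (4.86%) were below and 14 (3.24%) were above, against 1.21% and 1.25% of all genes. A parent gene in the table could be named for 15 of these. None of the 7 pseudogenes above had a parent that also passed above, and 1 had a parent that passed below, the RPS23 pair. Of the 8 below, 1 had a parent that passed below, RPL13AP5 with RPL13A, which deviated by −0.71 and −1.06. At the background share of 1.25% above and 1.21% below, few of 15 parents would be reached. Elsewhere the copy moved while the abundant parent did not pass. For example, GAPDHP1 deviated by −1.49 and −1.32, and GAPDH, the glycolytic enzyme, was at 1731, 2134 and 1883 FPKM around 6 h and deviated by 0.24 and 0.31. This example was chosen after its values were seen.

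Among the 6 broad gene classes compared, small RNA genes had the highest share below. The class held 161 annotated small nucleolar, small Cajal body, small nuclear, micro, miscellaneous and ribozyme RNA genes. Of these, 41 (25.5%) were below, 10 (6.21%) were above and 11 passed in opposite directions. Over all genes the shares were 1.21% below, 1.25% above and 0.163% in opposite directions. These 161 genes were thus 11 of the 20 genes that passed in opposite directions. Of 44 C/D box RNAs, 17 (38.6%) were below, 2 (4.55%) were above and 7 went opposite ways. Of 24 H/ACA box RNAs, which guide pseudouridylation, 3 (12.5%) were below and 0 above. Many of these genes were at a few FPKM or less in several libraries. With a series mean of at least 10 FPKM, 3 C/D box RNAs were below.

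Both C/D box RNAs that were above and 4 of the 17 below, picked after their values were seen, are shown as they stand in GENCODE 29, written as DNA, with the C box (TGATGA) and the D box (CTGA) in capitals. These motifs were searched on the sense strand. Both were found in 30 of the 44 C/D box RNAs tested (68.2%), and in all 6 shown here. SNORD22, SNORD36C and SNORD88A, all below, do not hold the letters TGATGA.
SNORD102, above: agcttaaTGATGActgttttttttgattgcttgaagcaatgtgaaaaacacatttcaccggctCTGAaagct
SNORD73B, above: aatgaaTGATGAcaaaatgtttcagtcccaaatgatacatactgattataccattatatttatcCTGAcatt
SNORD83A, below: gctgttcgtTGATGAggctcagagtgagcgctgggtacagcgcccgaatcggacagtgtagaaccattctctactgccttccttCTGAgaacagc
SNORD83B, below: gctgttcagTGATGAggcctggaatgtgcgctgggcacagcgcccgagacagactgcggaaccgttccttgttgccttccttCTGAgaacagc
SNORD4A, below: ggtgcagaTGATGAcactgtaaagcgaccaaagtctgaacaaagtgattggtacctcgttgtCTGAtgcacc
SNORD12B, below: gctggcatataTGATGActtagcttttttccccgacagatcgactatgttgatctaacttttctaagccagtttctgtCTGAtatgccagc
SNORD102 was at 1.94, 11.4 and 2.90 FPKM around 6 h and at 23.5, 31.9 and 11.05 FPKM around 32 h, and it reached 128 and 162 FPKM at 16 h and 18 h. The 16 remaining time points did not go above 14.9 FPKM. SNORD83A was at 15.9, 2.01 and 13.2 FPKM and at 13.7, 2.12 and 9.74 FPKM, was listed at 0 at 16 h and 18 h, and was at 5.73 FPKM or more elsewhere. SNORD83B, which shares a host gene with SNORD83A, was at 14.5, 3.82 and 12.2 FPKM and at 15.0, 1.78 and 7.32 FPKM. SNORD4A was at 75.4, 30.1 and 70.9 FPKM and at 53.3, 13.02 and 38.2 FPKM, the lowest of the series apart from 16 h and 18 h. SNORD12B had deviations of −2.05 and −0.61. SNORD73B, at 5.47 FPKM at 6 h and 2.17 FPKM at 32 h, was within its range at the 16 remaining time points, which ended at 7.01 FPKM.

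Of 24 host genes of small nucleolar RNAs, 3 (12.5%) were below and 0 above, against 1.21% and 1.25% of all genes. The medians were −0.11 at 6 h and −0.28 at 32 h. SNHG25 was at 16.5, 8.87 and 24.6 FPKM around 6 h and at 28.2, 8.00 and 14.8 FPKM around 32 h. SNHG19 was at 55.6, 25.03 and 53.1 FPKM and at 71.5, 26.8 and 29.3 FPKM, and SNHG9 at 25.5, 12.7 and 22.4 FPKM and at 29.4, 11.2 and 13.1 FPKM. For SNHG19 and SNHG9 the level at 32 h was close to that at 34 h, and the deviation came mainly from the 30 h library. All 3 were far lower at 16 h and 18 h, where none was above 4.46 FPKM. Both ribozyme RNAs in the table were below, and they are already counted among the 161 small RNA genes. RPPH1, the RNA of ribonuclease P, was at 5.40, 2.76 and 4.73 FPKM and at 8.60, 1.71 and 1.98 FPKM, and RMRP deviated by −0.67 and −0.80 from neighbours that were 0.00181 and 5.93 FPKM around 6 h.

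Of 26 microRNA genes, 10 (38.5%) were below and 2 (7.69%) were above, against 1.21% and 1.25% of all genes. The table has 1 value per gene and does not separate the mature RNA from its precursor or from the transcript it lies in. Of the 12 genes, 11 matched RefSeq (GRCh38.p14), and 4 mature sequences are shown, with the seed, bases 2 to 8, in capitals, for the microRNA genes with the largest deviation in either direction and for 2 others chosen after their values were seen.
hsa-miR-25-3p, above: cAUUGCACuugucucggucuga
hsa-miR-3661, above: uGACCUGGgacucggacagcug
hsa-miR-4292, below: cCCCUGGGccggccuugg
hsa-let-7d-5p, below: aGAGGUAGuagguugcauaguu
No seed is shared among these 4. MIR25, which lies in an intron of MCM7, was at 8.61, 23.02 and 5.46 FPKM around 6 h and at 5.44, 19.7 and 4.30 FPKM around 32 h, and at 12.995 and 0 FPKM at 16 h and 18 h. MIR4292 was at 5.74, 0 and 4.37 FPKM and at 7.26, 0 and 4.30 FPKM. MIRLET7D was at 5.33, 2.19 and 7.43 FPKM and at 2.24, 0.868 and 6.64 FPKM. Of the 25 genes listed at 0 at both 6 h and 32 h, 6 were microRNA genes, 7 unprocessed pseudogenes and 4 small nucleolar RNA genes.

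Genes with at least 1 transcript annotated as readthrough passed more often than all genes in both directions. This class takes in HBG2, described above with the globins, which is 1 of its 10 genes below. Of 158 tested, 14 (8.86%) were above and 10 (6.33%) were below, against 1.25% and 1.21% of all genes. The largest rise among members with a mean of at least 10 FPKM was that of CFAP298-TCP10L, at 2.47, 24.1 and 0.351 FPKM around 6 h and at 1.34, 51.9 and 4.62 FPKM around 32 h. CFAP298-TCP10L was at 70.5 and 73.1 FPKM at 16 h and 18 h. It was at most 4.77 FPKM at the 16 remaining time points, with a median of 0.51 FPKM. Its series mean, 10.1 FPKM, thus passed the filter only through the libraries at 6, 16, 18 and 32 h, where it was high. Its component CFAP298, a cilia and flagella protein, was at 72.9, 85.2 and 82.5 FPKM around 6 h and deviated by 0.13 and 0.04. ENSG00000257411, also a readthrough, was at 17.3, 126 and 12.1 FPKM and at 49.9, 167 and 56.6 FPKM. ENSG00000259316, a readthrough as well, was at 1.15, 93.7 and 3.23 FPKM around 6 h but at 43.2, 88.8 and 10.9 FPKM around 32 h. It also reached 46.7, 44.6 and 33.2 FPKM at 22, 26 and 28 h but stayed under 1 FPKM at 16 h and 18 h. Its series mean, 15.7 FPKM, thus passed the filter through the libraries at 6, 22, 26, 28, 30 and 32 h.

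NME1-NME2, a readthrough of nucleoside diphosphate kinase genes, was at 44.2, 33.4 and 72.9 FPKM around 6 h and at 147, 10.6 and 26.3 FPKM around 32 h. Over the same libraries NME2 deviated by 0.29 and 0.59 and NME1 by −0.25 and −0.11. For 6 readthrough members the component genes could be named and were in the table, 11 components in all. None of the 5 components of the 3 readthroughs above and none of the 6 of the 3 below passed in the direction of its readthrough, or in the other direction. Over all genes 1.25% were above and 1.21% below, so few of 11 components would be reached at the background share.

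Other members had similar on-and-off patterns. PIGY, a subunit of the enzyme that starts GPI anchor synthesis, was at 20.1, 1.14 and 31.8 FPKM around 6 h and at 11.1 and 8.09 FPKM on either side of 32 h, where its value was close to 0. It was also close to 0 at 16 h and 18 h and at 6.32 FPKM or more elsewhere. ENSG00000262526 was at 42.3, 3.65 and 37.2 FPKM around 6 h, but at 20.6, 17.9 and 47.4 FPKM around 32 h. ENSG00000273885, a small nucleolar RNA gene without a symbol, was at 81.2, 1.82 and 55.2 FPKM and at 133, 6.25 and 30.0 FPKM. ENSG00000266727 and ENSG00000207765, both not in GENCODE 29, went from 88.6 and 19.9 FPKM at 4 h to close to 0 at 6 h and back to 72.0 and 29.2 FPKM at 8 h, and were close to 0 at 32 h as well. In all, 105 genes were not in GENCODE 29. Of them, 20 (19%) were below and 5 (4.76%) above, against 1.21% and 1.25% of all genes.

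ENSG00000281255 and ENSG00000280102, also not in GENCODE 29, owe much of their 32 h deviation to the 30 h library. The former was at 172, 15.1 and 346 FPKM around 6 h and at 6158, 6.37 and 86.1 FPKM around 32 h, and the latter at 221, 63.2 and 417 FPKM and at 10275, 28.7 and 168 FPKM. Among the largest rises, POM121C, a nuclear pore protein with close paralogs, was at 20.9, 61.8 and 19.9 FPKM and at 20.0, 75.1 and 28.8 FPKM, and at most 29.2 FPKM at the 16 remaining time points. The antisense genes ENSG00000267062 and ENSG00000269968 were at 30.6 and 58.8 FPKM at 6 h and at 33.5 and 52.0 FPKM at 32 h. ENSG00000263020, a readthrough, was at 20.8 and 19.7 FPKM. ENSG00000278050, a miscellaneous RNA gene, was at 9.42, 0.971 and 21.6 FPKM around 6 h, and at 32 h it was close to 0 between 1.12 and 12.96 FPKM.

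Protein-coding genes made up 108 of the 153 genes above (1.04% of 10386 tested) and 46 of the 148 below (0.443%). Among glycolytic enzymes, 2 of 17 (11.8%) were above and 0 below, against 1.25% and 1.21% of all genes, with medians of 0.23 and 0.10. PGAM1, phosphoglycerate mutase, was at 11.8, 25.2 and 10.1 FPKM around 6 h and at 10.5, 31.6 and 13.1 FPKM around 32 h, and PKM, pyruvate kinase, at 214, 322 and 191 FPKM and at 277, 409 and 262 FPKM. LDHA, lactate dehydrogenase A, deviated by 0.79 at 6 h and 0.44 at 32 h.

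Among 76 genes of the nuclear respiratory chain list, 2 (2.63%) were above and 2 were below, against 1.25% and 1.21% of all genes. At that share few genes would be reached in this list or in the 2 lists that follow. UQCRQ, of complex III, was at 314, 199.6 and 320.2 FPKM and at 385, 164 and 247 FPKM, and NDUFA4 at 266, 145 and 267 FPKM and at 279.7, 125 and 167 FPKM. NDUFS6, of complex I, was above, at 127, 211 and 127 FPKM and at 153, 222 and 132 FPKM. The other gene above, ATP5F1EP2, is a pseudogene that the list's name pattern took in. Of 44 proteasome genes, 2 (4.55%) were below, PSMA2, of the core particle, at 218, 127 and 209 FPKM and at 232, 126 and 183 FPKM, and PSMB10, an immunoproteasome subunit, at 14.2 FPKM at 6 h and 14.1 FPKM at 32 h. Of 20 core spliceosome proteins, 1 (5%) was above, LSM8, at 97.2, 147 and 89.4 FPKM and at 92.6, 149.6 and 90.1 FPKM.

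Of 52 G2 and M phase genes, 0 were above and 1 (1.92%) was below, and of 43 S phase genes 0 passed in either direction. Of all genes, 1.25% were above and 1.21% below, so few would be reached in lists of this size at the background share. CKS1B, which binds cyclin-dependent kinases, was at 21.1, 14.7 and 26.0 FPKM and at 30.3, 16.2 and 22.3 FPKM. PLK1, the mitotic kinase, lay just outside the threshold with deviations of 0.58 at 6 h and 0.73 at 32 h. PRIM1, a DNA primase subunit, deviated by 0.51 and 0.84. Of 375 zinc finger genes 1 (0.267%) was above, ZNF302, at 6.85, 16.9 and 6.98 FPKM and at 1.77, 19.8 and 6.64 FPKM, and of 30 replication-dependent histone genes 1 (3.33%) was above, H2AC7, at 4.56 FPKM at 6 h and 4.70 FPKM at 32 h.

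Of 17 heat shock chaperones, 15 endoplasmic reticulum chaperones, 17 genes of the integrated stress response, 12 immediate early genes and 17 cholesterol genes, 0 moved 1.5-fold the same way at both time points, where 2.46% of all genes did, so that few would be reached in lists of this size at the background share. The heat shock list had medians of 0.19 at 6 h and 0.33 at 32 h, and with the following neighbour alone the median at 6 h was −0.11. HSPA9, the mitochondrial HSP70, deviated by 0.51 and 0.72. DDIT3, a stress-induced transcription factor, deviated by −0.46 and −0.41. The 12 immediate early genes had medians of 0.22 and 0.19, and 9 of the 12 were positive at both, against 44% of all genes. Of 39 translation factors and 8 long nuclear RNAs 0 passed, with MALAT1 at 627, 1329 and 769 FPKM around 6 h and at 1509, 1593 and 900.5 FPKM around 32 h. MALAT1 reached 11073 and 12319 FPKM at 16 h and 18 h. In all, 14 of the 31 lists had 0 members in either direction. The bar chart of list shares shows the lists discussed here.

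The genes that moved also differed in structure, which the rule did not use. The longest annotated transcript had a median of 534.5 nucleotides among the genes below, 2376 (2375.5) among those above and 3245 among all genes tested. Among protein-coding genes alone the medians were 1719.5, 3188.5 and 3601 nucleotides. Genes with a single exon made up 50.8% of those below, 17.6% of those above and 7.43% of all. GC content had medians of 48.8% below, 50.7% above and 47.8% over all genes. A length could be assigned to 86.5% of the genes below and 96.7% of those above. Of protein-coding genes with a symbol, 50% of those below had a pseudogene named after them, against 21.6% of those above and 16.9% of all. Without the ribosomal protein genes these shares were 32.3%, 20% and 16.3%. Abundance differed as well, with a median series mean of 5.44 FPKM below, 18.5 FPKM above and 13.8 FPKM over all genes.

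The edge of the rule was set by the smaller of the 2 deviations of a gene. The 3 genes just inside it on the upper side, with a mean of at least 10 FPKM, were GOLGA7 (deviations of 0.63 and 0.59), CYB5R3 (0.59 and 0.67) and ADIPOR1 (0.59 and 0.63). Just outside were RNF31 (0.58 and 0.72), DEK (0.58 and 0.59) and PLK1. On the lower side, TMEM128 (−0.59 and −0.77), RPS27A (−1.14 and −0.59) and IKBKG (−0.60 and −1.32) lay just inside, and SNHG15 (−0.58 and −0.65), COX6A1 (−0.64 and −0.58) and BRD7 (−0.58 and −0.62) just outside. GOLGA7 was at 39.8, 62.8 and 40.5 FPKM around 6 h and at 42.3, 68.8 and 48.8 FPKM around 32 h, above both neighbours each time. Of the 148 genes below, 37 were listed at 0 at 6 h or 32 h. The other 111 had medians of −0.91 at 6 h and −0.94 at 32 h, and 105 of them had negative deviations at 16 h and 18 h.

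The counts of genes above and below depended on scaling. As deposited, 50.8% of the 301 genes were above. With each library centred on its median the counts were 120 above and 173 below (41% above), and with upper-quartile scaling they were 102 and 181 (36% above). The median of all genes moved by 0.07 or less under either scaling. Without the 30 h library, that is with 32 h set against 34 h alone, 145 genes were above and 106 below.

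In the cleaned table, whose values are scores that the authors made from the same libraries, the departures at 6 h and 32 h remained. All 153 genes above had positive deviations at both time points there, with medians of 1.34 SD at 6 h and 1.77 SD at 32 h, where the SD is that of the score over all genes and samples. Of the 148 below, 145 had negative deviations at both, with medians of −1.89 SD and −1.53 SD. Among all genes 37.2% were positive and 32.6% negative at both. These scores come from the libraries that chose the genes and are a description.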

How the data were processed

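The authors aligned reads with STAR and quantified genes with Cufflinks and Cuffnorm on GRCh37, per the submitters' notes, and deposited FPKM for 12285 genes. A deposited table of cleaned scores, made by the authors from the same libraries, served as a side check. Read depth is not given, so the counting error is unknown. Symbols, types and lengths came from GENCODE 29 (12180 identifiers matched) and RefSeq. No coordinates are printed. Genes were kept from a mean of 1 FPKM upwards and analysed as log2(FPKM + 1), and the deviations were tested on simulated data.

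With 1 library per time point, no significance test was run. Named genes were MTATP6P1, HBA1, HBG2, all globins, the 10 largest changes each way and the 5 largest each way among protein-coding genes (mean of at least 10 FPKM), the 3 nearest each side of the threshold, and up to 3 genes per list. Members and lists were chosen with earlier results of these data known. Some genes that this rule names are not reported here. Parents, components and neighbours of these genes were named after their values were seen. Alternatives changed the pseudocount, filter, scaling, GC trend, neighbours and fold. Leaving out single neighbouring libraries was chosen after seeing the data. Python 3.11.15, numpy 2.4.6, pandas 2.3.3, scipy 1.17.1 and Biopython 1.88 were used.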

Additional observations from a re-analysis of the deposited data

Results flagged for a closer look

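In 3 genes averaging 10 FPKM or more, of the 20 that passed in opposite directions, the deviation at 6 h had the opposite sign to that at 32 h, each past 1.5-fold, and the difference was not tested. SNORD36A, a C/D box RNA, deviated by 0.60 at 6 h and by −1.87 at 32 h, from 39.2, 47.4 and 24.3 FPKM at 4, 6 and 8 h and 28.9, 9.23 and 45.6 FPKM at 30, 32 and 34 h. SNORD48, also of the C/D box class, deviated by 1.04 and −2.76. ENSG00000280489, which is not in GENCODE 29, deviated by −2.93 and 0.75.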

How the results depend on the processing

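With a pseudocount of 0.1, 281 genes at 6 h and 348 at 32 h were 2-fold off, against 176 and 179. With a mean of at least 10 FPKM these were 59 and 63, with 98 genes above and 58 below at both, r = 0.81, 3 C/D box RNAs below and a median length of 1332 nucleotides among genes below. Against the preceding neighbours alone, which is also the value without the 34 h library, 323 genes were 2-fold off at 32 h. At 2-fold, 27 genes were above and 62 below at both, with 10 C/D box RNAs and 1 ribosomal protein gene below. Ribosomal protein genes below numbered 6 against the following neighbours alone and 7 without the 30 h library. The share of genes above that were also above at 16 h and 18 h was 88.9% at 2-fold, and the share below was 97.7% with median centring and 88.2% with the preceding neighbours alone. Against the following neighbours alone the medians at 6 h turned to −0.11 for heat shock chaperones and −0.039 for G2 and M phase genes. The causes were not tested. Of 1076 deviations of named genes recomputed, 1048 moved by less than 1 SD of the gene's deviations at the 16 other time points and 28 moved further. A change of sign was counted only for genes whose mean deviation was at least 1.5-fold, and there were 0. Of 342 list medians, 80 moved by more than the SD of that median over the 16 time points. Another 2 changed sign, counted only for medians of at least 0.1 in size. Of 173 other values 23 moved. No paired analysis was possible because each time point has 1 library.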
